A study of Mus musculus with 104 samples.

Results

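The 10 genes described here are the p53 gene itself and 9 genes known as its targets or as executioners of apoptosis: Trp53, Bax, Bbc3, Cdkn1a, Mdm2, Ccng1, Pmaip1, Phlda3, Trp53inp1 and Bok. They were chosen by symbol, and all 10 were found among the 22592 rows of the expression table of the Kmt2b mutants and the 22593 rows of the table of the Tet1/2 mutants. p53 is a transcription factor that is held at a low protein level by the ubiquitin ligase Mdm2, which is in turn a p53 target, so the pair forms a negative feedback loop. When damage or stress stabilises it, p53 raises genes that stop the cell cycle (Cdkn1a, the inhibitor p21) and genes that open the mitochondrial route to apoptosis (Bax, Bbc3 or Puma, Pmaip1 or Noxa). The epiblast around gastrulation divides fast and is known for its ready use of apoptosis.

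RNA was measured in mouse embryos at embryonic day (E) 6.5, in the epiblast, the tissue that forms the embryo proper, and in the head at E8.5 and E9.5. Libraries followed the Smart-seq2 protocol, and the deposited values are FPKM (fragments per kilobase of transcript, as a share of all mapped fragments), which are scaled for gene length. Mutants were Kmt2b-/- (KO), which lack a histone H3 lysine 4 methyltransferase, and Tet1-/-;Tet2-/- (DKO), which lack a pair of enzymes that oxidise methylated cytosine in DNA. The Tet1/2 table has 9 libraries: 3 wild-type (WT) and 2 DKO epiblasts at E6.5, and 2 WT and 2 DKO heads at E8.5.

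The Kmt2b table has 1 merged column per group: WT and KO epiblast at E6.5 (3 libraries each in the labels), WT (3) and KO (2) heads at E8.5, and WT heads at E9.5 (3). Its E9.5 KO column is a single library, titled as head but with a column name that does not say head. The labels give no sex, strain, cross or Cre line for these RNA samples, and they do not say that replicates came from separate embryos, so p-values measure the spread between libraries, which may be technical. In the Tet1/2 table the names of the 3 WT epiblast columns give no set. They were matched by stage, tissue, genotype and replicate number to the only WT epiblast RNA samples in the labels used here, which are titled for the Kmt2b set. As matched, the genotype and the set of embryos cannot be told apart in the Tet1/2 epiblast comparison, and both epiblast comparisons use the same WT samples. The mean of these columns and the merged WT epiblast column of the Kmt2b table had a Pearson's r of 0.9995 across 22562 genes, which are not independent replicates. The E8.5 heads have their own WT in each set.

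The targeted genes were checked first. Kmt2b (under its older symbol Wbp7) was at 0.701 FPKM in WT and 0.308 in KO epiblast, 0.600 and 0.133 in the E8.5 heads, and 1.20 and 0.0349 in the E9.5 columns, lower in KO each time. Tet1 was between 4.77 and 6.29 FPKM in the WT epiblasts and at 3.82 and 2.92 in the DKO epiblasts. In the heads it was at 2.55 and 3.33 FPKM in WT and 1.28 and 1.30 in DKO. Tet2 was under 0.5 FPKM in all 9 libraries, too low to check. All 6 epiblast markers were at 1 FPKM or more in all 5 epiblast libraries, and all 8 neural head markers in the 4 head libraries. The DKO epiblast pair differed from each other by at least 2-fold on the scale of FPKM + 1 at 896 genes, against 259 to 312 for pairs of WT epiblasts, 136 for the WT heads and 96 for the DKO heads.

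Because Kmt2b and Tet1 are known to act at CpG-rich promoters, the sequences upstream of the members' starts are shown for 4 genes on which the results below turn: Bax, Mdm2, Phlda3 and Bok. They are from RefSeq on GRCm38.p6, 5′ to 3′ on the gene's strand, and capitals mark CpG dinucleotides. RefSeq windows of 300 bases (250 before to 50 after a start) were at hand for 8 of the 10 genes, and those of Pmaip1 and Trp53inp1 were not. The bases within the genes are left out of what is printed.
Bax (chr7:45466904-45467148, minus strand): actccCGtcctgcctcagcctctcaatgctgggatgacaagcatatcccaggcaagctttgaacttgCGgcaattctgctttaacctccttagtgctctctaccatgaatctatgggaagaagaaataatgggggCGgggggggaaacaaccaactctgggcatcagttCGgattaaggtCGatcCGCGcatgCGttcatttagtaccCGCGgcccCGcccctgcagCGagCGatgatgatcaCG
Mdm2 (chr10:117710759-117711008, minus strand): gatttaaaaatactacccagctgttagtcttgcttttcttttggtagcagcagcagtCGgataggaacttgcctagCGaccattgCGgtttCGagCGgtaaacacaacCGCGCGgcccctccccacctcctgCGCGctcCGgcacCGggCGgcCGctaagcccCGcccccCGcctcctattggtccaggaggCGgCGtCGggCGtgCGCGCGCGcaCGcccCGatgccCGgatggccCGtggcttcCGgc
Phlda3 (chr1:135765835-135766084, plus strand): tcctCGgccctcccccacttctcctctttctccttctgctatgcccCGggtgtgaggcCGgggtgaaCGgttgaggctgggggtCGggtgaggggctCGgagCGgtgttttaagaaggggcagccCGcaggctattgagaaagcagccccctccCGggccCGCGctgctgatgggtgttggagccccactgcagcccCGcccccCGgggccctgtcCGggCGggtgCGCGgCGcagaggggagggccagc
Bok (chr1:93685325-93685574, plus strand): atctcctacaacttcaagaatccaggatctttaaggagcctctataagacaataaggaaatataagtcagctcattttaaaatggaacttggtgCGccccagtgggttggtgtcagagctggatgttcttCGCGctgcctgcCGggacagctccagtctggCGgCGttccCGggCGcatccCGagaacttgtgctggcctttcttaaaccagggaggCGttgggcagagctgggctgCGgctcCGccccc

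The median over all 32851 windows was 7 CpG dinucleotides. The Mdm2 window held 35, the Phlda3 window 26, the Bax window 19 and the Bok window 16. Ccng1 had 14 and Trp53 10. The share of all windows with fewer CpG was 93% for Mdm2, 67% for Bok and 56.5% for Trp53. The Bbc3 windows, from 3 starts, held 30 to 39. The 2 windows of Cdkn1a differed, with 2 CpG in one and 23 in the other. The windows were also searched for the p53 half-site consensus, a motif of 10 bases that reads the same on both strands, so that one search covers both. At least 1 match was present in 8.36% of all windows. The members' matches are given because these genes are known p53 targets. The Mdm2 window holds GAACTTGCCT, which begins at position -186 from the start used for the window, and the Bax window AGGCAAGCTT, at position -201. The Cdkn1a window with few CpG holds 2, GGACTAGCTT and GAACATGTCT, at positions -73 and -51. Trp53 (GGACTTGCCC, at -75) and Ccng1 (GGGCAAGCCT, at -185) hold 1 each, and the windows of Bbc3, Phlda3 and Bok hold no match to these letters. A match is a description of the letters and was not tested as a binding site.

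In the Tet1/2 DKO epiblast at E6.5, 5 of the 10 genes were higher than in WT and none was lower. These were the apoptosis genes Bbc3 and Pmaip1, the growth and death regulators Phlda3 and Trp53inp1, and Mdm2. By limma on log2(FPKM + 1), with p-values adjusted over 11264 genes by Benjamini-Hochberg, 35.2% of all genes tested were called, 20.1% higher and 15.2% lower, so changes were common in this comparison. The median difference of the 10 genes was 0.48, and that of all genes tested 0.05, on the log2 scale. All 10 passed the filter of at least 1 FPKM in 2 libraries. Bbc3 passed it only through the 2 DKO epiblasts, so its inclusion in these counts and in the median was not independent of the difference. The count was 0 without DKO epiblast replicate 2, a fit in which Bbc3 no longer passed the filter, and 2 without WT epiblast replicate 3. Without WT epiblast replicate 2, or without either DKO head, whose libraries share in the estimate of spread, it was 3.

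**Figure D1:**
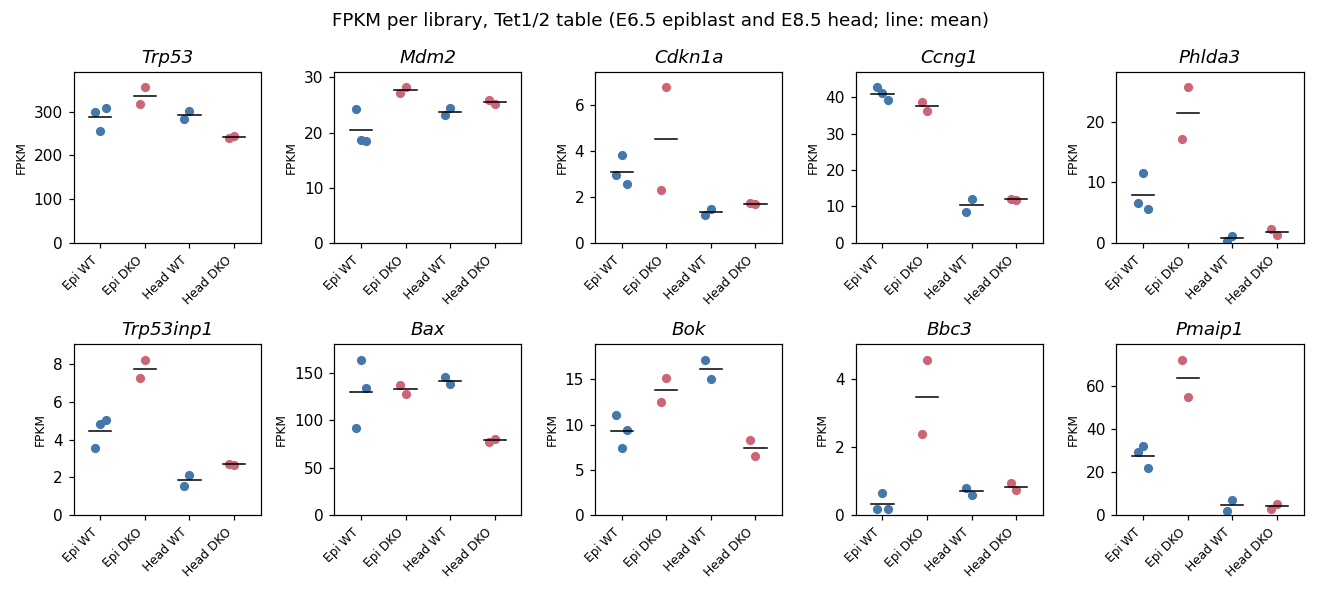
FPKM of each of the 10 genes (y axis, from 0, its own scale per gene) in the 9 libraries of the Tet1/2 table, grouped on the x axis as E6.5 epiblast (Epi) and E8.5 head, WT in blue and DKO in red. Each point is 1 library and the line is the group mean. Both DKO epiblasts lie above all 3 WT epiblasts for Bbc3, Pmaip1, Phlda3, Trp53inp1 and Mdm2, and both DKO heads lie below both WT heads for Bax, Bok and Trp53.

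Trp53, the p53 gene, was at 298.5, 255.1 and 307.9 FPKM in the WT epiblasts and 316.6 and 355.6 in the DKO epiblasts. The groups did not overlap, but the difference of 0.23 ± 0.09 (SE, log2 scale) did not pass the test (limma, adjusted p = 0.0917). In the heads the order was the other way round: 283.2 and 300.6 FPKM in WT, 240.6 and 244.0 in DKO, a difference of -0.27 ± 0.08 that did not pass either (limma, adjusted p = 0.211). The genotype difference in the head minus that in the epiblast was -0.50 ± 0.14 and passed the test of the difference itself (limma, adjusted p = 0.0339). It was called in only 7 of the 15 alternatives run. It was -0.41 without DKO epiblast replicate 2 and no longer passed (limma, adjusted p = 0.0889), nor did it pass with any 1 of the 4 heads left out (limma, adjusted p from 0.0664 to 0.111). In the 9 libraries Trp53 was the most abundant of the 10 genes per length, and its RNA level says nothing of p53 protein, which is mainly set after translation.

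Mdm2, the p53 inhibitor, was at 24.2, 18.7 and 18.4 FPKM in the WT epiblasts and 27.1 and 28.2 in the DKO epiblasts. It rose by 0.43 ± 0.13 on the log2 scale (limma, adjusted p = 0.0344), with both DKO libraries above all 3 WT libraries. The margin was narrow: WT replicate 1 was less than 3 FPKM below the lower DKO library, and the adjusted p was over 0.05 without any 1 of 8 of the 9 libraries (limma, 0.052 to 0.117), WT epiblast replicate 1 being the exception. Heads were tightly grouped, at 23.2 and 24.4 FPKM in WT and 25.8 and 25.2 in DKO, a difference of 0.10 ± 0.10 (limma, adjusted p = 0.663). Over all 4 groups Mdm2 stayed between 18.4 and 28.2 FPKM, the narrowest range in proportion apart from Trp53.

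Bbc3 encodes Puma, a BH3-only protein that binds and neutralises the survival members of the Bcl2 family. It was barely detected in the WT epiblasts (0.188, 0.654 and 0.174 FPKM) and was at 2.38 and 4.56 FPKM in the DKO epiblasts. The rise of 1.71 ± 0.25 on the log2 scale was the largest among the 10 genes in this comparison (limma, adjusted p = 0.00186). Bbc3 passed the filter only through the 2 DKO epiblasts, so this test was not independent of the difference. In fits without the filter, chosen after seeing the data, the rise was 2.07 without DKO replicate 1 and 1.35 without DKO replicate 2. All 4 heads were between 0.602 and 0.954 FPKM, with the groups overlapping. The head minus epiblast difference was -1.60 ± 0.37 (limma, adjusted p = 0.0172). It was -1.24 without DKO epiblast replicate 2 and without the filter, and did not pass (limma, adjusted p = 0.0615). It did not pass without WT head replicate 1 (limma, adjusted p = 0.0634), nor without DKO head replicate 1 or 2 (limma, 0.0557 and 0.063).

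Pmaip1 encodes Noxa, another BH3-only protein, which targets the survival factor Mcl1. Its levels were 29.3, 32.0 and 21.8 FPKM in the WT epiblasts and 72.3 and 55.0 in the DKO epiblasts, so that the DKO pair lay apart from WT by more than the spread in either group. The rise was 1.18 ± 0.39 on the log2 scale (limma, adjusted p = 0.0472), just past the threshold. The value without 1 of the 5 epiblasts ranged from 0.98 to 1.37, and none of those 5 fits passed (limma, adjusted p from 0.0712 to 0.144). Without DKO head replicate 1 or 2 the adjusted p was 0.0563 and 0.0568 (limma). The heads had little Pmaip1, at 2.03 and 7.18 FPKM in WT and 3.04 and 5.34 in DKO. The DKO heads lay between the WT heads, a difference of 0.02 ± 0.49 (limma, adjusted p = 0.987).

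Phlda3, a p53 target known to block Akt at the membrane, was at 6.54, 11.6 and 5.63 FPKM in the WT epiblasts and 17.3 and 25.7 in the DKO epiblasts. It rose by 1.37 ± 0.35 on the log2 scale (limma, adjusted p = 0.0173). Without DKO replicate 2 the difference was 1.09 and did not pass (limma, adjusted p = 0.0937), and without WT epiblast replicate 1 or 3 the adjusted p was 0.0509 and 0.0532. The heads were at 0.363 and 1.18 FPKM in WT and 2.37 and 1.24 in DKO, higher in both DKO libraries but by 0.67 ± 0.34, which did not pass (limma, adjusted p = 0.384).

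Trp53inp1, a nuclear protein that promotes the death response of p53, was at 3.59, 4.82 and 5.03 FPKM in the WT epiblasts and 7.28 and 8.25 in the DKO epiblasts. It rose by 0.69 ± 0.18 on the log2 scale (limma, adjusted p = 0.0201). Without DKO replicate 2 the value was 0.61 and did not pass (limma, adjusted p = 0.0896). In the heads it was at 1.57 and 2.15 FPKM in WT and 2.73 and 2.67 in DKO, a difference of 0.38 ± 0.18 (limma, adjusted p = 0.347).

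The cell cycle genes Cdkn1a and Ccng1 did not pass the test. Cdkn1a, the inhibitor p21, was at 2.94, 3.80 and 2.54 FPKM in the WT epiblasts, and the DKO epiblasts lay on both sides of them, at 2.29 and 6.75. The difference of 0.32 ± 0.33 did not pass the test (limma, adjusted p = 0.479) and rested on which DKO library was kept. It was -0.30 without DKO replicate 2 (limma, adjusted p = 0.376) and 0.93 without DKO replicate 1, which passed (limma, adjusted p = 0.0126). In the heads it was at 1.20 and 1.49 FPKM in WT and 1.71 and 1.69 in DKO, which did not overlap. The difference of 0.21 ± 0.40 did not pass (limma, adjusted p = 0.826). Its SE takes in the DKO epiblasts, with an SD of 0.87 on the log2 scale, against 0.13 in the WT and 0.0093 in the DKO heads. Ccng1, cyclin G1, was at 42.6, 41.0 and 39.2 FPKM in the WT and 38.8 and 36.1 in the DKO epiblasts, a difference of -0.13 ± 0.14 (limma, adjusted p = 0.511). It was at 8.52 and 12.2 FPKM in WT heads against 12.1 and 11.8 in DKO heads. That difference, 0.21 ± 0.18, did not pass either (limma, adjusted p = 0.596).

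Bax, the pore-forming effector of the mitochondrial route, was the only 1 of the 10 called in the DKO heads at E8.5, where 0.433% of 10867 genes were called, 0.175% lower and 0.258% higher. It was at 145.5 and 138.9 FPKM in WT heads against 76.9 and 80.9 in DKO heads, so that the groups were far apart and each pair was tight. It fell by 0.84 ± 0.08 on the log2 scale (limma, adjusted p = 0.0228). The value stayed between -0.88 and -0.81 in the alternatives run, but the call was lost without any 1 of the 4 heads (limma, adjusted p from 0.118 to 0.279) and with all 9 libraries in the fit (limma, adjusted p = 0.117). In the epiblasts Bax was at 91.7, 164.2 and 134.4 FPKM in WT and 137.9 and 127.6 in DKO, which overlapped (0.07 ± 0.20, limma, adjusted p = 0.819). The head minus epiblast difference was -0.91 ± 0.30 and just missed the threshold (limma, adjusted p = 0.0541).

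Bok, a relative of Bax that can permeabilise mitochondria, differed between the genotypes in opposite directions in the 2 tissues. It was at 11.1, 7.42 and 9.46 FPKM in the WT epiblasts and 12.5 and 15.1 in the DKO epiblasts. In the heads it was at 17.2 and 15.02 FPKM in WT and 8.30 and 6.56 in DKO. Neither difference passed by itself: 0.53 ± 0.19 in the epiblast (limma, adjusted p = 0.0539) and -1.03 ± 0.17 in the head (limma, adjusted p = 0.0963). The head difference was called in 2 of 13 alternatives, each without 1 of the DKO epiblasts, whose libraries share in the estimate of spread. That in the epiblast was called in 3 of 15. The test of the head minus the epiblast difference gave -1.56 ± 0.28 (limma, adjusted p = 0.00636), where 15.6% of the genes tested were called lower and 10.9% higher. It was called in all 15 alternatives run, with adjusted p from 0.00334 to 0.0301 (limma).

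**Figure D2:**
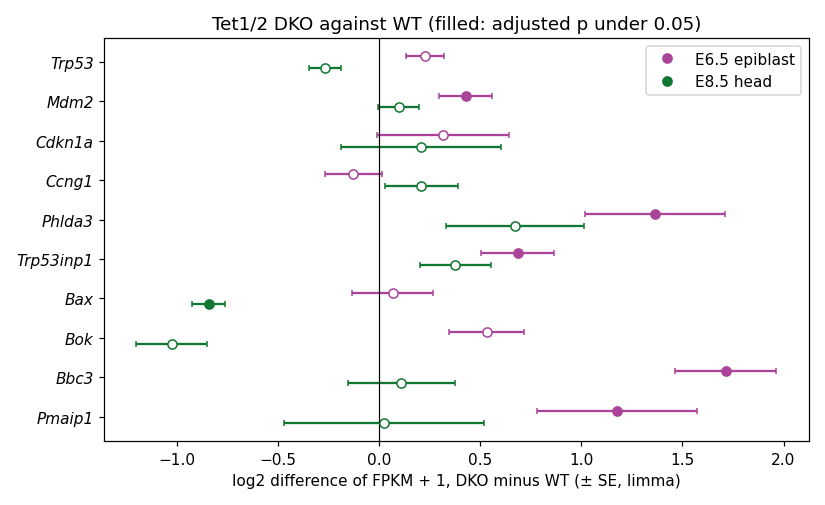
Log2 differences of FPKM + 1, DKO minus WT (x axis), for the 10 genes (y axis), in the E6.5 epiblast (purple) and the E8.5 head (green), with bars of 1 SE from limma. Filled points passed an adjusted p of 0.05. Filled points are Mdm2, Phlda3, Trp53inp1, Bbc3 and Pmaip1 in the epiblast and Bax in the head, and Bok lies at 0.53 in the epiblast and -1.03 in the head.

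Over the whole list, 3 of the 10 genes were called in the test of head minus epiblast (Bbc3, Bok and Trp53, all with a negative difference), where 26.4% of all genes were called. Bbc3 passed the filter for this test only through the DKO epiblasts, so its place in the count was not independent of the difference. In the heads, 3 of the 10 were at an unadjusted p under 0.05 (Bax, Bok and Trp53), as were 16.8% of all genes tested there. The libraries of the 2 genotypes did not overlap for 7 of the 10 genes in the heads, which held for 60.4% of all genes tested, and for 8 of the 10 in the epiblasts, against 56% of all genes. Markers of cell types differed between the groups too. The summed FPKM of the 6 epiblast markers was 2350 to 2474 in the DKO epiblasts and 1385 to 1460 in WT. The list was split: limma called 3 of the 6 higher in DKO and 1 lower. The lower one was Tdgf1, with means of 192.8 FPKM in WT and 70.5 in DKO. The summed FPKM of the 8 visceral endoderm markers was 2.17 to 3.38 in DKO and 0.562 to 1.12 in WT, with 3 of the 8 listed at 0 in each DKO library and 4 to 6 in each WT library. Summed heart muscle markers were 28.4 and 185.3 FPKM in WT heads against 8.19 and 5.10 in DKO heads, and the erythroid sum was 376.9 FPKM in DKO head replicate 1 and at most 4.52 in the other heads. The part of these differences in the results above was not tested, and in bulk samples fewer cells of a type and less RNA per cell cannot be told apart.

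Other genes of the pathway were grouped into lists by role. Of 39 other known p53 targets, 28 could be tested in the DKO epiblast, and 7 rose and 2 fell. Of all genes tested there, 20.1% were called higher and 15.2% lower. Ddit4, an inhibitor of mTOR that other stresses also raise, went from 0, 0.525 and 0 FPKM in WT to 3.86 and 5.99 in DKO, a rise of 2.34 ± 0.29 on the log2 scale (limma, adjusted p = 0.00091). Like Bbc3, it would not have passed the filter without the DKO epiblasts. Plk3, a stress-response kinase, rose by 1.21 and the sestrin Sesn2, which restrains mTOR, by 1.17. Eda2r, a death receptor of the ectodysplasin pathway, was at 2.34, 3.03 and 3.12 FPKM in WT and 0.865 and 0.499 in DKO, and fell by 1.19 ± 0.22 (limma, adjusted p = 0.0053). The TRAIL receptor Tnfrsf10b fell by 1.02. The list's median was 0.23 against 0.05 over all genes tested.

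Of 18 tested regulators of p53, 8 rose and 3 fell in the DKO epiblast, where 20.1% of all genes were called higher and 15.2% lower. Rpl5 and Rpl11, ribosomal proteins that can bind Mdm2, fell by 1.57 and 1.61 on the log2 scale. Rpl5 had means of 233.2 ± 12.3 (SD, n = 3) and 78.0 ± 4.99 (SD, n = 2) FPKM. Both have many near-identical processed copies in the genome among which reads can be split, so these values are uncertain. The family member Trp73 rose by 1.01, though it passed the filter only through the DKO epiblasts, and Atr, a kinase that signals replication stress to p53, rose by 0.84.

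None of 10 tested Bcl2 family genes outside the members was called in the epiblast, where 35.2% of all genes were called. At an unadjusted p under 0.05 by limma were 2 of the 10, and 46.7% of all genes tested. Among 19 caspase and apoptosome genes, Apaf1, the scaffold of the apoptosome, rose by 0.84, while Cycs, cytochrome c, fell by 1.06. Cycs also has many processed copies, and its value is uncertain. Of 15 proliferation genes 6 rose, with Ccnd2 (1.22), Cdk2 (0.96) and Mcm2 (0.85) at the top, and 2 fell, Pcna (-0.63) and Ccnb1 (-0.35). Of all genes tested in the epiblast, 20.1% were called higher and 15.2% lower. In the DKO heads limma called no gene of the 5 lists. At an unadjusted p under 0.05 there were 3 of 28 other targets, 3 of 18 regulators, 0 of 9 Bcl2 family genes, 2 of 18 caspase genes and 8 of 15 proliferation genes, where 16.8% of all genes were.

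**Figure D3:**
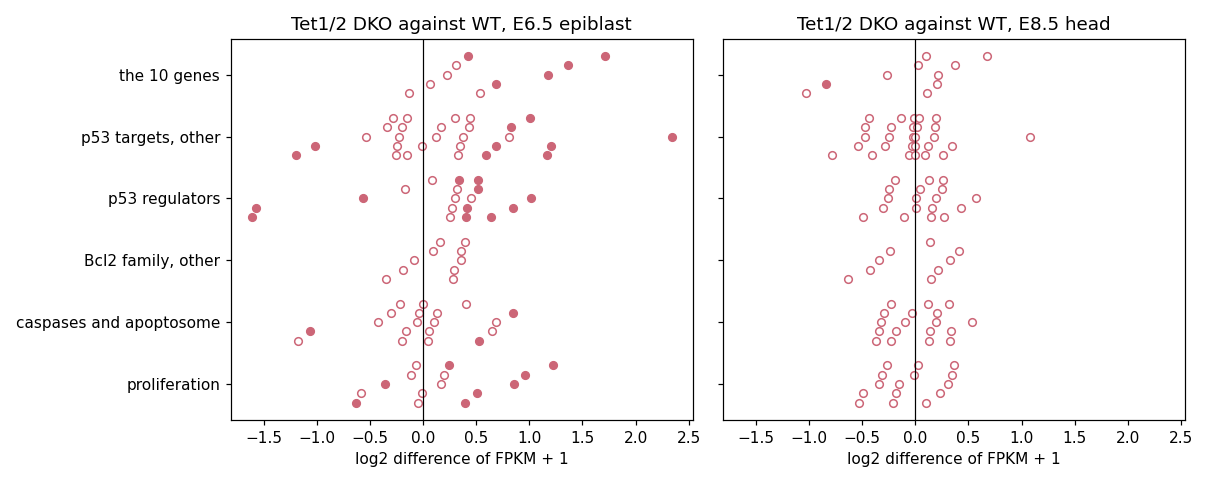
Log2 differences of FPKM + 1, DKO minus WT (x axis), for the 10 genes and for 5 lists of other genes (y axis, points spread vertically for legibility), in the E6.5 epiblast on the left and the E8.5 head on the right. Each point is 1 gene and filled points passed limma's adjusted p of 0.05. The left panel holds filled points on both sides of 0, and the right panel holds 1 filled point, Bax.

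Between E6.5 epiblast and E8.5 head, both WT and DKO had large differences in part of the list. In WT, 4 of the 10 genes were lower in the head and 1 was higher, where 36.9% of all genes tested were called, 17.1% lower and 19.9% higher. Differences on the log2 scale were -2.51 ± 0.39 (SE) for Pmaip1, -2.32 ± 0.35 for Phlda3, -1.91 ± 0.14 for Ccng1 and -0.93 ± 0.18 for Trp53inp1 (limma, adjusted p from 4.8e-05 to 0.00461), and Bok rose by 0.74 ± 0.19 (limma, adjusted p = 0.0147). Without WT head replicate 1 the count was 3. For Ccng1 the groups were a mean of 41.0 ± 1.72 FPKM (SD, n = 3) in the epiblast and 10.3 ± 2.59 (SD, n = 2) in the head. Trp53 (0.03 ± 0.09) and Bax (0.17 ± 0.20) did not pass, and their heads lay within the range of the epiblasts.

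In DKO, 8 of the 10 genes fell from epiblast to head and none rose, where 49.8% of all genes were called, 26.1% lower and 23.7% higher. Bbc3, among the 8, passed the filter only through the DKO epiblasts, so its place in this count was not independent of the difference. The steepest were Pmaip1 (-3.66 ± 0.43) and Phlda3 (-3.01 ± 0.38). Bbc3 (-1.24 ± 0.28), Bax (-0.74 ± 0.22), Trp53 (-0.47 ± 0.10) and Bok (-0.82 ± 0.20) fell in DKO (limma, adjusted p from 0.00631 to 0.0224), and none of the 4 was called lower in WT. The fall of Bax was not called without DKO epiblast replicate 1 (limma, adjusted p = 0.0648), without DKO head replicate 1 or 2 (limma, 0.1 and 0.0701) or with no filter (limma, 0.0531), and that of Bok was not called without DKO head replicate 2 (limma, 0.0763). Of these 4, the difference between the genotypes was called for Bbc3, Trp53 and Bok and not for Bax, by the test of head minus epiblast given above. The stage and the tissue change together in this comparison, and their parts cannot be told apart.

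Among the 10 genes, the levels of Phlda3, Trp53inp1, Pmaip1 and Ccng1 went together over the 9 libraries, with Pearson's r of log2(FPKM + 1) from 0.85 (Ccng1 and Trp53inp1) to 0.97 (Phlda3 and Trp53inp1). The 9 libraries share 2 tissues and 2 genotypes, so r describes mainly those groups. Mdm2 and Bax gave the lowest r, -0.43. Over all genes kept, the 3 whose levels were most like those of Trp53 were Wdr3 (0.993), Zbtb8b (0.966) and Golga3 (0.960). Wdr3 was at 53.6, 44.7 and 55.5 FPKM in the WT and 57.6 and 66.2 in the DKO epiblasts, 49.6 and 55.0 in the WT and 39.9 and 39.0 in the DKO heads, the same order of groups as Trp53. For Cdkn1a they were Zfp830 (0.984), Ss18 (0.959) and Zbtb2 (0.959), and for Mdm2 D830030K20Rik (0.970), Smap2 (0.955) and Rnf114 (0.953).

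In the Kmt2b KO there is 1 column per group, so no test was possible and differences of log2(FPKM + 1) are set against a mark of 2-fold. Of the 10 genes 9 passed the filter of at least 1 FPKM in 2 columns. Bbc3 did not: it was at 0.414 FPKM in WT and 1.60 in KO epiblast, 0.542 and 0.958 in the E8.5 heads and 0.0279 and 0.568 in the E9.5 columns. In the E6.5 epiblast none of the 9 reached the mark, which 1.71% of 11073 genes did (1.08% higher and 0.623% lower). The largest difference was that of Cdkn1a, at 3.26 FPKM in WT and 1.77 in KO (-0.62), followed by Bok (8.96 and 6.39, -0.43) and Ccng1 (39.6 and 29.7, -0.41). Trp53 was at 280.8 and 227.0 FPKM and Mdm2 at 19.7 and 19.9. For scale, the SD of log2(FPKM + 1) among the 3 WT epiblasts in the separately normalized Tet1/2 table was exceeded by the KO difference in 4 of the 9 genes, and in 56.8% of all genes.

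In the E8.5 head 2 of the 9 reached the mark, where 4.73% of all genes did, 2.22% higher and 2.51% lower. Bok was at 12.8 FPKM in WT and 3.18 in KO, a difference of -1.73. Phlda3 was at 0.943 and 2.98 FPKM (1.03, but 0.425 and under the mark with a pseudocount of 5). Ccng1 (9.34 and 18.2 FPKM, 0.90) and Pmaip1 (3.35 and 6.26 FPKM, 0.74) were higher in KO but under the mark. The difference of Pmaip1 was smaller than the SD of 1.01 between the 2 WT heads of the Tet1/2 table. Trp53 (262.8 and 290.9 FPKM), Bax (124.6 and 112.8), Mdm2 (24.0 and 24.9), Cdkn1a (1.42 and 1.40) and Trp53inp1 (2.50 and 2.71) were all within 0.15 on the log2 scale. The KO difference exceeded the SD of the 2 WT heads of the Tet1/2 table in 6 of the 9 genes, Trp53, Bax and Mdm2 among them, and in 74.2% of all genes. Bok was thus lower in mutant than in WT heads in both sets, which have separate WT samples: -1.73 in Kmt2b KO and -1.03 in Tet1/2 DKO, the first without a test and the second not past it in the main fit. Cell type markers differed between the E8.5 columns too. All 8 neural head markers were lower in KO, with sums of 209 FPKM in WT and 148.8 in KO. All 6 epiblast markers were higher, with sums of 64.1 and 126.3 FPKM, and the erythroid sum was 98.0 and 4.96 FPKM. The part of the tissue composition in the E8.5 differences was not tested.

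At E9.5, 3 of the 9 were at least 2-fold higher in the KO library, and none was lower by that much, where 8.26% of all genes reached the mark, 4.7% higher and 3.57% lower. Bax was at 26.0 FPKM in WT and 82.9 in KO (1.64), Cdkn1a at 1.88 and 6.71 (1.42, but 0.77 and under the mark with a pseudocount of 5), and Trp53 at 87.2 and 206.0 (1.23). Phlda3 (0.860 and 2.50 FPKM, 0.91), Ccng1 (19.9 and 29.3, 0.53) and Pmaip1 (0.705 and 1.29, 0.43) were higher under the mark. Bok (8.64 and 6.20 FPKM, -0.42) and Trp53inp1 (5.59 and 4.52, -0.26) were lower under it, and Mdm2 (18.4 and 20.3, 0.13) was nearly level. The summed heart muscle markers were 20.8 FPKM in WT and 2411 in the KO library, with Myl3 and Nkx2-5 at 0 in WT, and the erythroid sum was 15770 and 5868 FPKM. All 8 neural head markers were at 1 FPKM or more in both columns. The part of the tissue composition in the E9.5 differences was not tested. The E9.5 columns were also not on the common distribution of the other columns. With all columns brought to 1 distribution, the differences were 1.44 for Bax and 1.11 for Trp53.

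**Figure D4:**
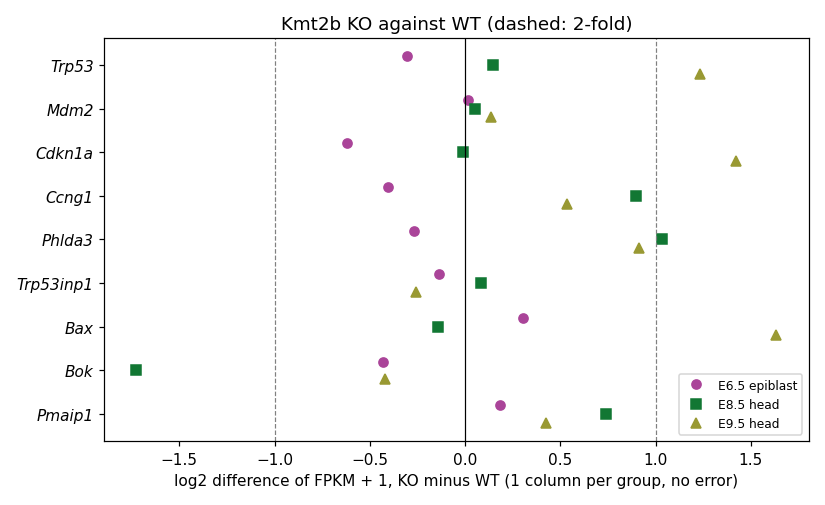
Log2 differences of FPKM + 1, Kmt2b KO minus WT (x axis), for the 9 genes that passed the filter (y axis), at E6.5 (circles), E8.5 (squares) and E9.5 (triangles), with no error since each group has 1 column. Dashed lines mark 2-fold. The E6.5 values lie between -0.62 and 0.30, Bok at E8.5 is at -1.73, and Bax, Cdkn1a and Trp53 at E9.5 lie past the line on the right.

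The WT columns of the Kmt2b table also give the level of each gene at 3 stages. Trp53 was at 280.8 FPKM in the epiblast, 262.8 in the E8.5 head and 87.2 in the E9.5 head, and Bax at 131.1, 124.6 and 26.0. Pmaip1 went from 27.2 to 3.35 and 0.705 FPKM, and Phlda3 from 8.32 to 0.943 and 0.860. Mdm2, at 19.7, 24.0 and 18.4 FPKM, varied least. After all columns were brought to 1 distribution the E9.5 levels were 89.6 FPKM for Trp53 and 28.5 for Bax.

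Of the 27 other targets that could be compared in the Kmt2b KO, 2 were past the mark at E6.5, 1 at E8.5 and 5 at E9.5 (2 higher and 3 lower). Of 18 regulators there were 0, 1 and 1, of 18 caspase and apoptosome genes 0, 2 and 4, and of 15 proliferation genes 0, 0 and 1, where 1.71%, 4.73% and 8.26% of all genes were past it. At E6.5 they were Ddit4 (0.236 FPKM in WT and 3.52 in KO, 1.87) and Ei24 (1.04). Ddit4 reached 1 FPKM only in the KO columns at E6.5 and E8.5, and passed the filter through them. At E8.5 they included Gadd45a, a growth arrest gene (13.9 and 33.0 FPKM, 1.19), Rpl5 (1.16, uncertain for the reason given) and, lower, the initiator Casp8 (-1.07). At E9.5 Perp, a junction protein of stratified epithelia and p53 and p63 target (18.6 and 2.63 FPKM, -2.43), Btg2 (-1.87), Trp63 (-1.97), Casp8 (-1.41) and the nuclease gene Endog (-1.32) were lower in KO, and Sesn2 (1.28), Gtse1 (1.13), Bcl2l1 (1.17) and Plk1 (1.13) were higher. Of the 10 Bcl2 family genes tested, Bcl2l1 at E9.5 was the only one past the mark at any of the 3 stages.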

How the data were processed

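RNA from WT, Kmt2b-/- and Tet1-/-;Tet2-/- mouse embryos was deposited by the authors as FPKM in 2 tables. The submitters' processing notes name TopHat2 2.0.11 and Cufflinks 2.0.2 among the tools and mm9 among the builds. Per the file headers, the Kmt2b table holds merged columns. Sorted values were nearly equal across the Tet1/2 columns and across the E6.5 and E8.5 columns of the Kmt2b table, as after quantile normalization, and not in its E9.5 columns. Tests were made only within a table. Read depth is unknown. Not used were 2 columns of the Kmt2b table that belong to no listed sample, and small RNA rows and 27 rows with date-like names were left out.

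Values were taken as log2(FPKM + 1). A gene was tested where 2 or more columns reached 1 FPKM. limma 3.58.1 (R 4.3.3) with a trended eBayes was used, with Benjamini-Hochberg adjustment over all genes kept and a threshold of 0.05. The head contrast was fitted on 6 libraries (the WT epiblasts left out) and the others on 9. Fits were tested on simulated data: of genes changed by 1 on the log2 scale, 50% were recovered in the head and 65% in the epiblast comparison, and of those changed by 2, 83% and 92%. The changed genes, 100 of each size, were drawn only from genes with a higher mean than Bbc3, Cdkn1a and Trp53inp1. The shares therefore do not cover such low genes. Far fewer genes were changed than were called in the real epiblast comparison, so the adjustment differed too. The members and lists were chosen with earlier results of these data known. The genes named were all members, up to 4 of each other list per comparison by size of difference among those past the test or the mark, the target genes, and the 3 genes most like Trp53, Cdkn1a and Mdm2. Tnfrsf10b and Ccnb1 in the DKO epiblast were named beyond this rule, after their values were seen. Alternatives were other pseudocounts, no filter, median scaling, no trend, the replicate number as a block, all 9 libraries for the head, and each library left out. Some genes of the caspase list are not reported here.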

Additional observations from a re-analysis of the deposited data

Results flagged for a closer look

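For 3 of the 10 genes the effect of the Tet1/2 genotype differed between the E8.5 head and the E6.5 epiblast by the test of the difference itself, where 26.4% of all genes tested were called. Of the 3, Bbc3 passed the filter only through the DKO epiblasts, so its place here was not independent of the difference. Bok gave -1.558 on the log2 scale (limma, adjusted p = 0.00636), being higher in both DKO epiblasts and lower in both DKO heads than in all WT libraries of the same tissue. Bbc3 gave -1.603 (limma, adjusted p = 0.0172), being higher in both DKO epiblasts while the heads overlapped; this was not called without WT head replicate 1 or either DKO head, nor without DKO epiblast replicate 2 in a fit with no filter (limma, adjusted p from 0.0557 to 0.0634). Trp53 gave -0.4956 (limma, adjusted p = 0.0339), with all DKO libraries above WT in the epiblast and below WT in the head. It was called in only 7 of the 15 alternatives run, and not without DKO epiblast replicate 2 or any 1 of the 4 heads. As matched to the labels, the WT epiblasts belong to the Kmt2b set and the WT heads to the Tet1/2 set, and the part of this in the 3 differences cannot be told apart from the tissue.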

How the results depend on the processing

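Values outside the leave-one-out fits were as follows. For all genes called in the DKO head (47), no filter gave 28 and all 9 libraries 160. Of the 10 genes, 0 were called there with no filter, without a trend, with the replicate block or with all 9 libraries. In the DKO epiblast 3 of the 10 were called with pseudocount 0.1, no filter or the replicate block. In the Kmt2b KO, genes at the mark at E6.5, E8.5 and E9.5 were 589, 1152 and 1709 with pseudocount 0.1, 41, 153 and 325 with pseudocount 5, and 1024, 1798 and 2849 at a 1.5-fold mark. The members at the mark were 1 at E6.5 and 4 at E8.5 with the 1.5-fold mark, and 1 at E8.5 with pseudocount 5. At E9.5 they were 4 with the 1.5-fold mark or pseudocount 0.1 and 2 with pseudocount 5, where Cdkn1a was under the mark.

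With each library left out in turn, the genes called ranged from 3 to 290 in the DKO head (members 0 to 2), from 2501 to 4364 in the DKO epiblast (members 0 to 4), from 1162 to 4047 for head minus epiblast (members 1 to 4), from 2157 to 4872 for WT head against epiblast (members 3 to 6) and from 3355 to 5575 for DKO (members 6 to 8). Signs turned for some values that had not passed the test. In the DKO head Pmaip1 was at -0.021 with pseudocount 5 and between -0.69 and 0.74, and Ccng1 between -0.025 and 0.45, with a library left out. In the DKO epiblast Bax ranged from -0.16 to 0.25 and Cdkn1a from -0.30 (without DKO epiblast replicate 2) to 0.93. For head minus epiblast Cdkn1a ranged from -0.72 to 0.51, and for WT head against epiblast Bax ranged from -0.063 to 0.35 and Trp53 from -0.055 to 0.080. The cause was not tested.

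Libraries with the same replicate number deviated together weakly or not at all (r of deviations from -0.01 to 0.19). Only the r of WT epiblast 1 with WT head 1 was below 0. In a group of 2 libraries the deviations mirror each other, so these r values are not independent. The numbers were not taken as pairs in the main fits. With the replicate block Bax in the head (adjusted p = 0.0596 by limma), Mdm2 (0.108) and Pmaip1 (0.103) in the epiblast and Trp53 for head minus epiblast (0.0519) lost the call. Where a left-out library leaves 1 in a group, that library is assumed to vary like the others. The fits of Bbc3 without a DKO epiblast and without the filter were chosen after seeing the data. Promoter methylation of the members, with its alternative window, was not run, since no gene starts on the build of those files were at hand. Depth is unknown, so levels under 1 FPKM carry no counting interval.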
